A study of Mus musculus with 8 samples.

Results

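The genes described are 10 epithelial, mesenchymal and matrix genes of a mouse immune panel, chosen by gene symbol: Snai1, Twist1, Cdh1, Epcam, Vim, Fn1, Col1a1, Col3a1, Fap and Pdgfrb. All 10 were on the panel, out of 750 immune-related genes. RNA came from whole peritoneal tumors, which grow when MC38 cells, a mouse colon cancer line, are placed in the peritoneal cavity. The study asked how the transcripts of the tumor microenvironment differ after intraperitoneal treatment with the STING agonist RR-CDA, a cyclic dinucleotide also known as ADU-S100. NanoString nCounter counting, in which a barcoded probe pair is hybridized to each transcript and counted without amplification, was applied to 8 tumor samples. Scaled counts below are counts divided by the relative level of the 20 housekeeping genes of the sample.

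All mice were male wild-type C57BL/6 animals, 7 to 8 weeks old at purchase, and each received 500000 MC38 cells. In the control group (4 samples), PBS was injected intraperitoneally from 7 days after implantation. In the treated group (4 samples), the injections held the STING agonist, by the study's methods and results text 15 µg given 2 times at an interval of 3 days, with tumors analysed 10 days after the first dose. The model rests on 1 cell line and on male mice. The labels name the tissue as colon, and they do not say that each sample is a different animal, so p-values measure the spread between these samples. The legend of the study pools 2 experiments without naming the experiment of each tumor, and no value within an experiment can be given. The 750 genes summed to 241724 to 403150 counts in the control samples and to 241506 to 414698 in the treated ones. Over genes of moderate count, controls 2 and 4 were closer to each other than counting error alone would leave them. Over the genes averaging 20 to 300 counts in a pair (320 here), chi-square divided by its degrees of freedom was 0.499 for these samples and 5.42 to 14.9 for the 11 other pairs within a group. Over the 10 genes described, the undivided chi-square was 27.2 for controls 2 and 4 and 46.5 to 4416 for the other pairs. Counting error alone would give about 1 for each gene, so over these 10 genes controls 2 and 4 differed by more than counting error. Because of their closeness over genes of moderate count, the mean of controls 2 and 4 was counted as 1 sample. This leaves n = 3 controls against n = 4 treated tumors.

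Epithelial cells hold to each other through E-cadherin and EpCAM. In the epithelial-mesenchymal transition these adhesion proteins are lost and vimentin and fibronectin are gained, under transcription factors of the SNAIL, TWIST and ZEB families. In tumors the same mesenchymal and matrix genes are also expressed by fibroblasts and pericytes, which lay down fibrillar collagens and surround vessels, so RNA from whole tissue carries both sources. In such bulk samples, fewer cells of a type and less RNA per cell cannot be told apart.

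Snai1, Col3a1 and Pdgfrb were lower in all 4 STING agonist-treated tumors than in every control, and Col1a1 was higher in 3 of 4 treated tumors than in every control. After adjustment over the 750 genes, none of the 10 genes had an adjusted p under 0.05 in edgeR's quasi-likelihood test (adjusted p = 0.171 to 0.927, and 0% of the panel called). Before adjustment, 3 of the 10 had a p under 0.05, against 19.1% of the panel (143 genes). By direction, 2 of the 10 were lower, against 1.33% of the panel, and 1 was higher, against 17.7%. The groups did not overlap in 3 of the 10, against 18.3% of the panel. All 3 were lower in the treated tumors, against 1.47% of the panel, and 0 were higher, against 16.8%. The 10 genes were chosen with earlier results of these data known, so these counts are a description and not a test. The log2 fold change was below 0 in 8 of the 10, against 29.2% of the panel, with a median of -0.35 for the 10 genes and 0.21 for all 750. Without control 1, or without STING agonist-treated tumor 1, only Snai1 of the 10 had an unadjusted p under 0.05, against 13.9% and 11.2% of the panel.

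**Figure D1:**
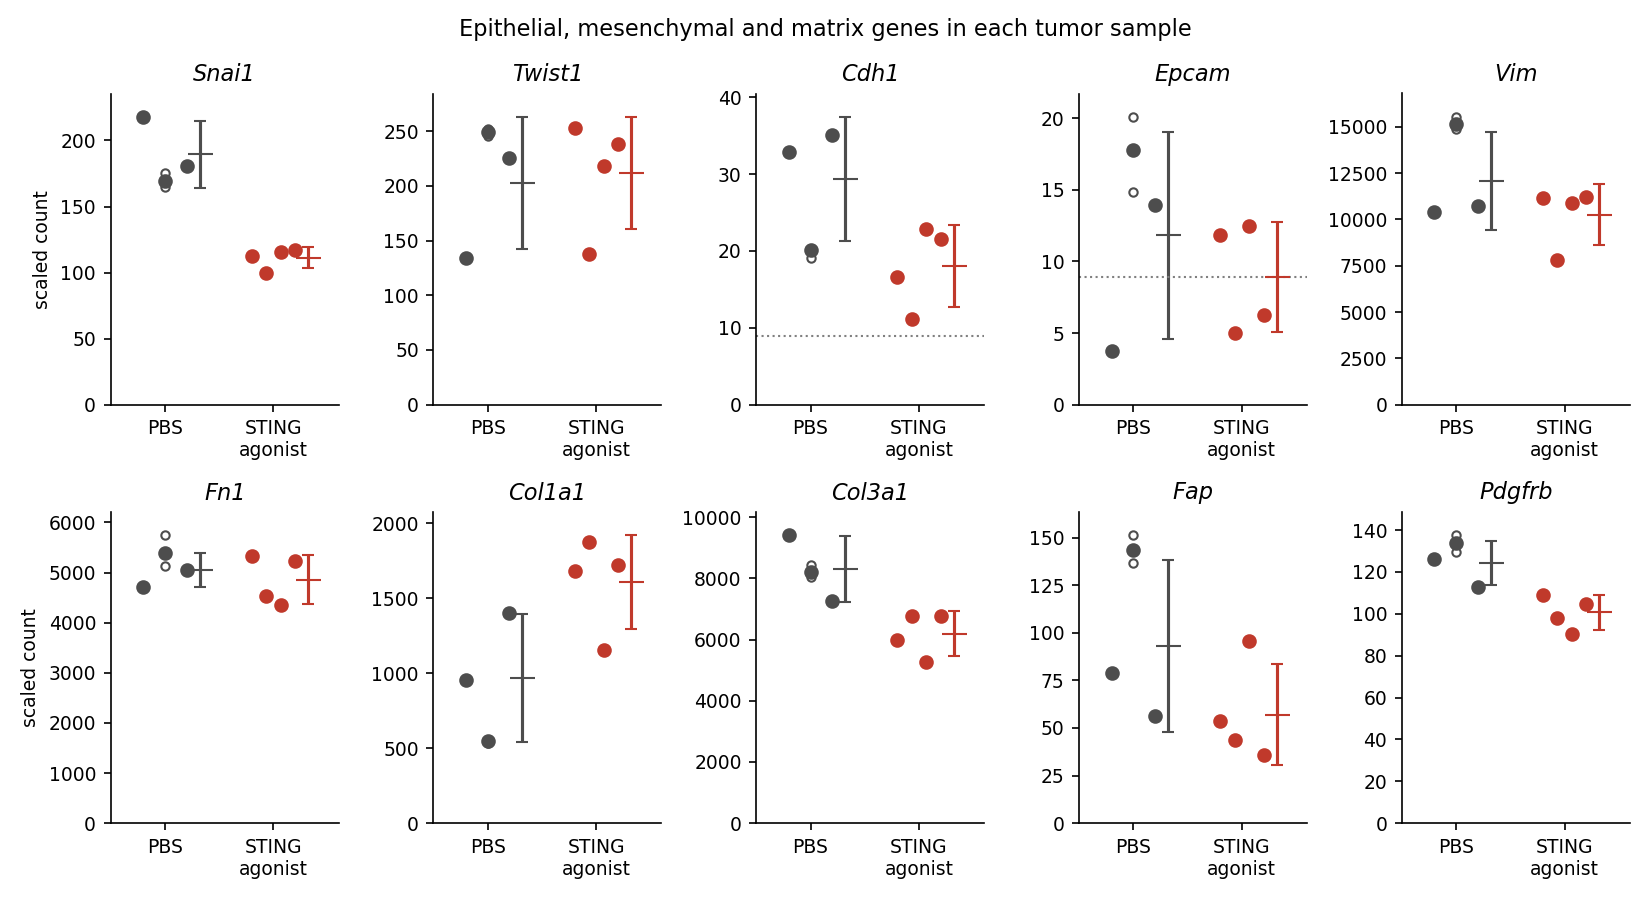
Scaled counts of the 10 genes, with 1 panel for each gene and its own axis from 0. Filled points are the samples (gray, PBS, with controls 2 and 4 averaged; red, STING agonist), open points are controls 2 and 4 on their own, and bars are mean ± SD. The dotted line in the Cdh1 and Epcam panels is the background (mean of the negative control probes plus 2 SD, scaled like the genes and averaged over the 8 tumors), 8.89 scaled counts. Snai1, Col3a1 and Pdgfrb show no overlap of the groups.

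Snai1 (NM_011427.2, chr2:167538195-167542814, GRCm38.p6) encodes a zinc finger repressor that binds E-boxes, CACCTG among them, and represses E-cadherin. Its scaled counts were 218, 169 and 181 in control 1, the averaged controls and control 3. In the treated tumors 1 to 4 they were 113, 99.4, 115 and 117. The highest treated tumor thus lay well below the lowest control, and the treated tumors lay closer to each other (CV 7.30%) than the controls did (CV 13.5%). The means of 189 ± 25.5 (SD, n = 3) and 111 ± 8.12 (SD, n = 4) give a fold of 0.587. The log2 fold change of Snai1 was -0.77 (edgeR, SE 0.17, adjusted p = 0.171). DESeq2's Wald test with the same scaling, which called 44 of the 750 genes, put Snai1 past the threshold (adjusted p = 0.0152). Over all alternatives that have one, the adjusted p of Snai1 lay between 0.0152 and 0.384. Its estimate lay between -1.03 and -0.65, and its groups did not overlap with any of the 5 other scalings.

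The promoters of Snai1 and of Col3a1 are shown because both genes were lower in every treated tumor, and that of Epcam because it is the other promoter of the set that holds the SNAIL motif. They are the 250 bases before the start of the gene in RefSeq (GRCm38.p6), on the plus strand, at chr2:167537945-167538194, chr1:45311288-45311537 and chr17:87635729-87635978. Capitals mark CACCTG on either strand, where the opposite strand reads as CAGGTG.
Snai1: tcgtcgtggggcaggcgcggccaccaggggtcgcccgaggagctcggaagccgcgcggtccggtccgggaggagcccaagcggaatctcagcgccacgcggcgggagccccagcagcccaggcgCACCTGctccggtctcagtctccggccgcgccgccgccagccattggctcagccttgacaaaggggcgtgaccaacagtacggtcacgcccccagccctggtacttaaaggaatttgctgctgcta
Col3a1: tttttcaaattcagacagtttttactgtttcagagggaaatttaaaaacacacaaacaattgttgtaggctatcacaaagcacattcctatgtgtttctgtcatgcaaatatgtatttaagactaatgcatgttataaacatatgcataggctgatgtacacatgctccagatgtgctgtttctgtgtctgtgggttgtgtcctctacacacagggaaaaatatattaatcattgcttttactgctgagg
Epcam: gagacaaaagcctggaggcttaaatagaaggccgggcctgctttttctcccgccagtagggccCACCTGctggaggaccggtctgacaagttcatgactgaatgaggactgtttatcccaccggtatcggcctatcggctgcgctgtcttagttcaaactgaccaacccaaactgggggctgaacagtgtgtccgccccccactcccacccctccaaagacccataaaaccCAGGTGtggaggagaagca
Of the 10 genes, 5 matched the RefSeq promoter table (Snai1, Twist1, Epcam, Vim and Col3a1), and Cdh1, Fn1, Col1a1, Fap and Pdgfrb did not. CACCTG stood in 2 of these 5, and in 17.2% of all 32851 promoters of that length. In Snai1 the motif began 126 bases before the start, and in Epcam the matches began 187 and 19 bases before it. The wider E-box CANNTG, which includes CACCTG, was found in 3 of the 5, among them Col3a1 with 4 matches, and in 66.2% of all promoters. The core of the interferon-stimulated response element, GAAA followed by any 2 bases and again GAAA, searched on both strands, was found in 0 of the 5 and in 2.98% of all. G and C made up 70% of the Snai1 window and 35.2% of the Col3a1 window, where the median over all promoters was 52.4%. A match is a description of the letters in the window and does not show binding.

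Twist1 (NM_011658.2), a basic helix-loop-helix factor that also acts in the epithelial-mesenchymal transition, did not follow Snai1. Control 1, the averaged controls and control 3 had 134, 249 and 225 scaled counts of Twist1. In the treated tumors 1 to 4 they were 253, 138, 218 and 238. In each group 1 tumor was low (control 1 and treated tumor 2) and the groups overlapped, with means of 203 ± 60.4 (SD, n = 3) and 212 ± 51.3 (SD, n = 4). The log2 fold change of 0.064 (edgeR, SE 0.28, adjusted p = 0.927) was below its own error, and it turned to -0.21 under TMM normalization. Of 11 genes listed as transcription factors of the transition, only Snai1 and Twist1 were on the panel.

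Cdh1 (NM_009864.2), the gene of E-cadherin in adherens junctions, is a target of SNAIL repression. Scaled counts of Cdh1 were 32.9, 20.1 and 35.1 in control 1, the averaged controls and control 3, and 16.6, 11.2, 22.8 and 21.5 in the treated tumors 1 to 4. Controls 1 and 3 were the highest, treated tumors 1 and 2 lay below every control, and the groups overlapped through the averaged controls. The means were 29.4 ± 8.10 (SD, n = 3) and 18.0 ± 5.30 (SD, n = 4), a log2 fold change of -0.70 (edgeR, SE 0.36, adjusted p = 0.332), which lay between -0.95 and -0.53 over all alternatives. Cdh1 and its repressor Snai1 thus both had lower means in the treated tumors. Within a tumor the log2 ratio of Cdh1 to Snai1 counts averaged -2.72 ± 0.35 (SD, n = 3) under PBS and -2.67 ± 0.37 (SD, n = 4) under the STING agonist. The difference of 0.047 is small beside that spread, and it turned to -0.13 without controls 2 and 4.

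Epcam (NM_008532.2), the other epithelial adhesion gene, lay near background. The raw counts ran from 4 to 19, and 6 of 8 tumors were above their own background, the mean of the negative control probes plus 2 SD (5.03 to 11.3 counts). After scaling, they were 3.76, 17.8 and 13.9 in the control samples and 11.9, 4.97, 12.5 and 6.28 in the treated tumors. Low tumors thus occurred in both groups, and a difference was not detectable at this depth (log2 fold change -0.39, SE 0.55, adjusted p = 0.768, edgeR). The estimate was -0.81 without control 1, where the groups did not overlap, -0.030 without controls 2 and 4, and -1.05 with background subtracted. As a check of the label, the epithelial markers on the panel were Cdh1 and Epcam, 2 of 5 listed. Their summed scaled counts were 36.7, 37.9 and 49.0 in the controls and 28.5, 16.1, 35.3 and 27.8 in the treated tumors, so the epithelial identity of colon cancer rested here on few counts. The cytokeratin genes of that list were not on the panel.

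Of 18 genes listed as epithelial, 4 were on the panel, and the other 2, Muc1 and Ceacam1, also had low counts. Muc1, a transmembrane mucin with a mean of 14.75 counts, had 11.9 ± 2.40 (SD, n = 3) scaled counts in the controls and 18.6 ± 6.04 (SD, n = 4) in the treated tumors (log2 fold change 0.63, SE 0.36, adjusted p = 0.374, edgeR). This estimate was 1.83 with background subtracted and 0.39 without treated tumor 1. Ceacam1, an adhesion molecule of epithelium and leukocytes, had a log2 fold change of 0.25 (SE 0.59), with treated tumors both below and above every control. Its sign rested on treated tumor 4 (30.5 scaled counts), without which it was -0.33, and it was -0.073 without controls 2 and 4. Of the 4 genes of this list on the panel, 0 had an unadjusted p under 0.05 (panel 19.1%), and under TMM normalization 1 did, Cdh1, which was lower (panel 16.9%).

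**Figure D2:**
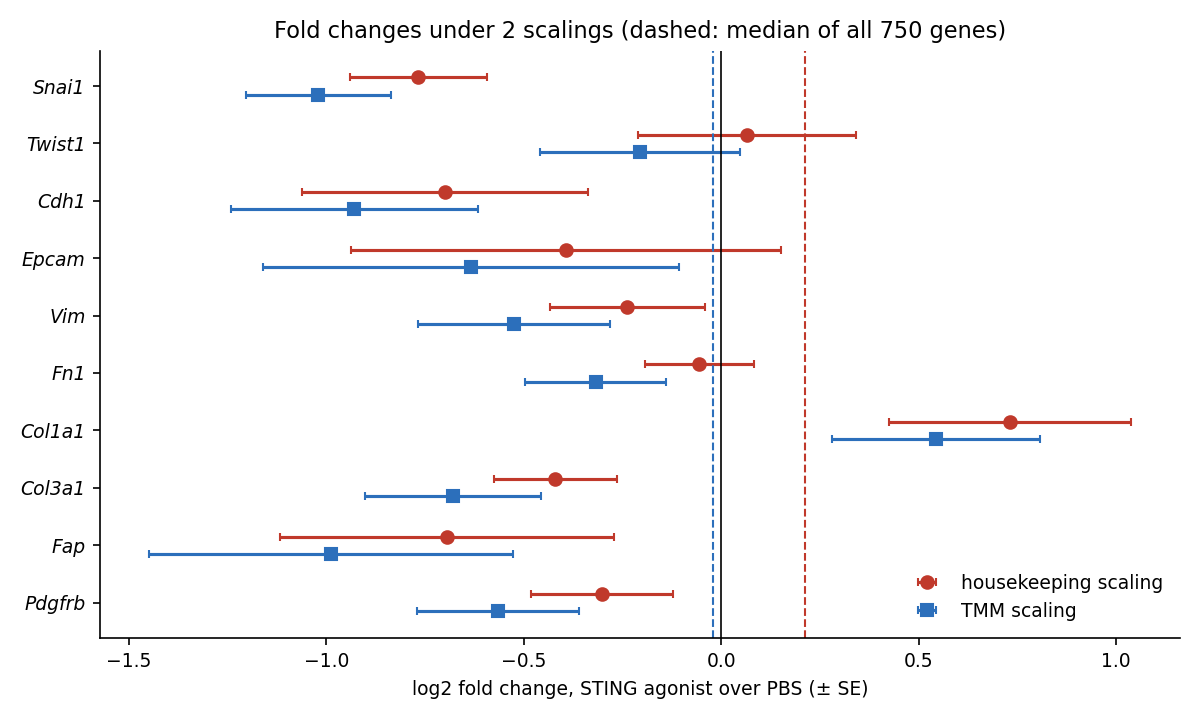
Log2 fold changes (STING agonist over PBS, ± SE) of the 10 genes from edgeR with the housekeeping scaling (red circles) and with TMM normalization (blue squares). Dashed lines are the median of all 750 genes under each scaling, 0.21 and -0.021. All 10 estimates move left with TMM, Twist1 changes side, and Col1a1 stays to the right of 0.

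Vim (NM_011701.4) encodes vimentin, the intermediate filament protein of fibroblasts, endothelial cells and leukocytes as well as of mesenchymal tumor cells. Vim stood at 10391, 15145 and 10717 scaled counts in control 1, the averaged controls and control 3, and 11141, 7798, 10862 and 11195 in the treated tumors 1 to 4. The averaged controls were high and treated tumor 2 was low, while the other 5 samples lay between 10391 and 11195. The log2 fold change of -0.24 (edgeR, SE 0.20, adjusted p = 0.554) became -0.042 without controls 2 and 4. It depended on the scaling, at -0.52 with TMM normalization, -0.17 with the positive control probes, -0.54 with DESeq2 size factors and -0.43 with the total count. With the last 2 of these Vim had an unadjusted p under 0.05, and with the total count its groups did not overlap.

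Fap (NM_007986.2), a serine protease on the surface of activated fibroblasts, varied more within the groups than any other of the 10 genes apart from Epcam, with a CV of 48.6% in the controls. The tumors held 79.0, 143 and 56.4 scaled counts of Fap in control 1, the averaged controls and control 3, and 53.4, 43.5, 95.5 and 35.9 in the treated tumors. Treated tumors 1, 2 and 4 lay below every control, and treated tumor 3 lay above 2 of the 3 control samples. The means were 92.9 ± 45.1 (SD, n = 3) and 57.1 ± 26.6 (SD, n = 4), with a log2 fold change of -0.69 (edgeR, SE 0.42, adjusted p = 0.407). Without controls 2 and 4 it was -0.24, and without treated tumor 3 it was -1.06, with groups that did not overlap and an unadjusted p under 0.05. With TMM normalization it was -0.99.

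Pdgfrb (NM_008809.1), the receptor for PDGF-B by which pericytes are recruited to vessels, is also expressed by fibroblasts. For Pdgfrb the scaled counts were 126, 134 and 113 in control 1, the averaged controls and control 3, and 109, 98.1, 90.3 and 105 in the treated tumors 1 to 4. The groups did not overlap, but the gap between control 3 and treated tumor 1 was narrow. The means were 124 ± 10.7 (SD, n = 3) and 101 ± 8.24 (SD, n = 4), a fold of 0.810 and a log2 fold change of -0.30 (edgeR, SE 0.18, adjusted p = 0.395). Over all alternatives the estimate lay between -0.58 and -0.25, and the groups of Pdgfrb overlapped with 1 of the 5 other scalings, that by the positive control probes. By a two-sided exact permutation test over the 35 arrangements of the samples, Snai1, Col3a1 and Pdgfrb each had p = 0.029, the smallest that 3 against 4 samples allow, without adjustment. Only a gene without overlap can reach this p, so for these genes it largely restates the lack of overlap.

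Of 19 genes listed for fibroblasts and pericytes, 6 were on the panel and 0 had an unadjusted p under 0.05 (panel 19.1%). Under TMM normalization 1 did, Pdgfrb, which was lower (panel 16.9%). Thy1, a surface glycoprotein of fibroblasts and T cells, averaged 179 ± 22.1 (SD, n = 3) scaled counts under PBS and 187 ± 24.1 (SD, n = 4) under the STING agonist. Its log2 fold change of 0.063 (SE 0.18) was -0.18 under TMM normalization. Mcam (CD146), an adhesion molecule of endothelial cells and pericytes, had a log2 fold change of 0.47 (edgeR, SE 0.24, adjusted p = 0.323). Over all alternatives the estimate of Mcam lay between 0.24 and 0.77, the highest without control 3. In 2 of 21 alternatives it had an unadjusted p under 0.05. Cspg4, the gene of the pericyte antigen NG2, was named after its values were seen and had a log2 fold change of 0.048 (SE 0.33), with overlapping groups. Under TMM normalization Cspg4 was at -0.17 and Mcam at 0.25, so Thy1 and Cspg4 had the sign of Pdgfrb under that scaling and the opposite sign with the housekeeping genes.

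The 2 fibrillar collagen genes had estimates of opposite sign. Col3a1 (NM_009930.1, chr1:45311538-45349706) encodes type III collagen, a homotrimer of young and distensible matrix. Its scaled counts were 9418, 8197 and 7272 in control 1, the averaged controls and control 3, and 5989.9, 6779, 5256 and 6767 in the treated tumors 1 to 4. Every treated tumor lay below every control, with means of 8296 ± 1076 (SD, n = 3) and 6198 ± 728 (SD, n = 4). With 3 of the 5 other scalings the groups of Col3a1 overlapped (TMM normalization, DESeq2 size factors and positive control probes). With the housekeeping scaling, the fold of 0.747 corresponds to a log2 fold change of -0.42 (edgeR, SE 0.16, adjusted p = 0.217), which lay between -0.69 and -0.32 over all alternatives.

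Col1a1 (NM_007742.3, chr11:94936224-94953042) encodes the major chain of type I collagen, the main fibrillar collagen of dense stroma. Scaled counts of Col1a1 were 953, 545 and 1402 in control 1, the averaged controls and control 3. In the treated tumors 1 to 4 they were 1682, 1873, 1154 and 1718. Treated tumors 1, 2 and 4 lay above every control, and treated tumor 3 lay below control 3. The means were 967 ± 429 (SD, n = 3) and 1607 ± 313 (SD, n = 4), a fold of 1.66 and a log2 fold change of 0.73 (edgeR, SE 0.31, adjusted p = 0.243). The averaged controls, which were 555 and 534 when taken singly, set the low end of the control group, and without them the estimate was 0.45. Without control 3, the highest control, it was 1.10, and the groups did not overlap.

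Taken within a tumor, the ratio of the collagens does not depend on how the samples are scaled. The log2 ratio of Col1a1 to Col3a1 counts was -3.30, -3.91 and -2.37 in control 1, the averaged controls and control 3. In the treated tumors 1 to 4 it was -1.83, -1.86, -2.19 and -1.98. Every treated tumor lay above every control, and the ratio of Col1a1 to Col3a1 was on average 2.35 times the control value (a difference of 1.23 on the log2 scale). The treated tumors were close to each other (SD 0.16, n = 4), whereas the controls were spread (SD 0.77, n = 3). Leaving out each sample in turn gave differences of 1.18 to 1.64, and leaving out controls 2 and 4 together gave 0.88. No test between the groups was run on ratios.

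**Figure D3:**
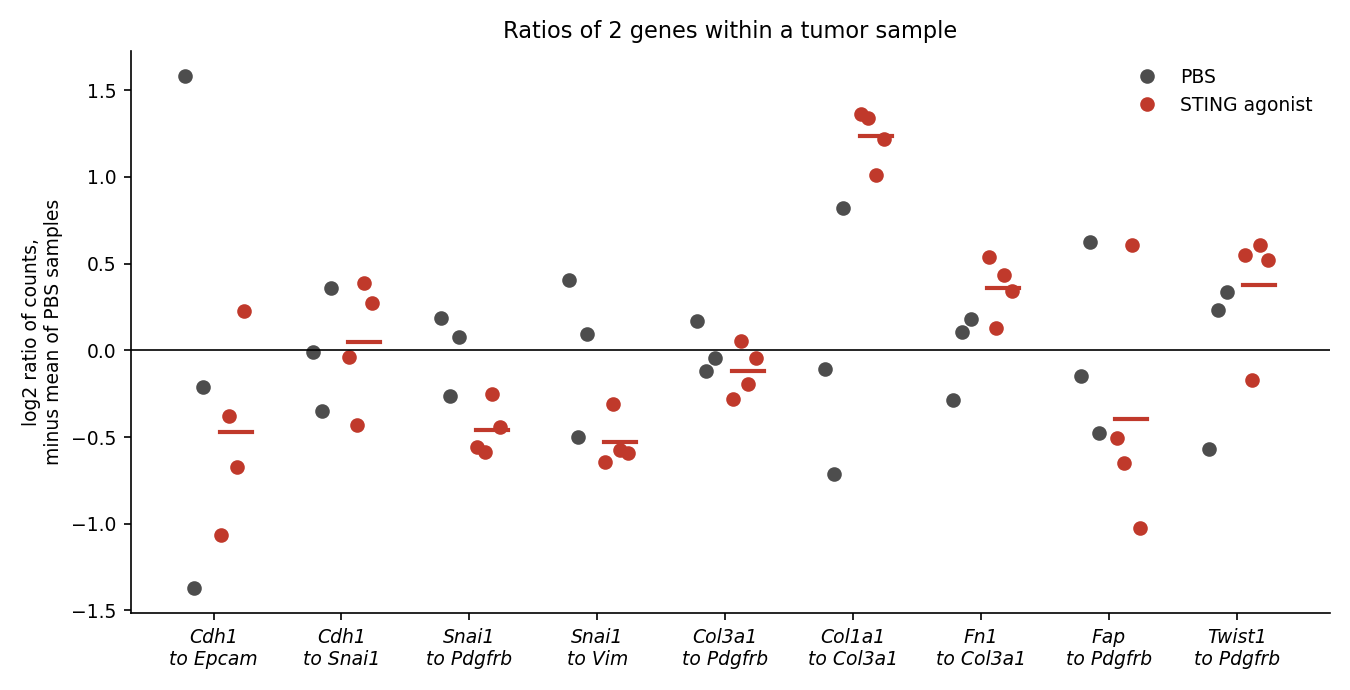
Log2 ratios of the counts of 2 genes within a sample, each shifted so that the control mean is 0 (gray, PBS; red, STING agonist; red bar, mean of the treated tumors). The ratio of Col1a1 to Col3a1 of all 4 treated tumors lies above the controls, and the other 8 ratios overlap between the groups.

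Fn1 (NM_010233.1), the gene of fibronectin, a matrix glycoprotein on which cells spread and collagen is assembled, was the most even of the 10 genes among the controls (CV 6.68%). Its scaled counts were 4713, 5388 and 5043 in the control samples and 5322, 4522, 4347 and 5232 in the treated tumors. The groups overlapped, and the log2 fold change was -0.056 (SE 0.14, adjusted p = 0.879, edgeR). It also varied with the scaling, at -0.32 with TMM normalization, -0.014 with the positive control probes, -0.33 with DESeq2 size factors and -0.26 with the total count. With the last 2 of these its groups did not overlap, and with the total count it had an unadjusted p under 0.05. The log2 ratio of Fn1 to Col3a1 differed by 0.36, with 3 of 4 treated tumors above every control, and by 0.22 when control 1 was left out.

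The remaining ratios show how the mesenchymal genes varied among themselves. The log2 ratio of Snai1 to Pdgfrb averaged 0.60 ± 0.24 (SD, n = 3) under PBS and 0.14 ± 0.15 (SD, n = 4) under the STING agonist, with 3 of 4 treated tumors below every control. That of Snai1 to Vim differed by -0.53, again with 3 of 4 below, and by -0.33 when control 1 was left out. Snai1 was thus lower relative to both genes, with 1 treated tumor overlapping the controls in each ratio. The ratio of Col3a1 to Pdgfrb, in contrast, differed by only -0.12 on the log2 scale (-0.18 to -0.033 over the alternatives), between controls of 5.94 to 6.22 and treated tumors of 5.78 to 6.11. The ratios of Fap and of Twist1 to Pdgfrb differed by -0.39 and 0.38, less than the SD of the treated tumors for Fap (0.70) and about as much as it for Twist1 (0.37). Of the 4 treated tumors, 3 lay below every control in the ratio of Fap and 3 above every control in that of Twist1. Both differences hung on single samples. The difference for Twist1 was 0.092 without control 1, and that for Fap lay between -0.73 and -0.18 over left-out samples and was -0.082 without controls 2 and 4. That of Cdh1 to Epcam differed by -0.47 and turned to 0.32 without control 1, which had 4 Epcam counts, as did treated tumor 2.

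Profiles over the 7 samples were compared by the root mean square difference of centred log2 values, over 517 genes with a mean of at least 20 counts. By this measure Col3a1 was the gene most like Snai1 (0.24), followed by Erbb2 (0.26). Pdgfrb was the gene most like Col3a1 (0.14), followed by Rrad (0.15). The profiles include the difference between the groups, so genes with a similar difference lie closer by construction. The genes most like Col1a1 were Tnfrsf14 (0.11) and Nlrc5 (0.15), which also had higher means after treatment. Those most like Twist1 were Klra4 (0.089) and Cd14 (0.095), and those most like Vim were Ifitm2 (0.075) and C1ra (0.084). Fn1 lay nearest to Ifnar2 (0.067) and Map2k4 (0.079), and Pdgfrb to Colec12 (0.13) and Ifnar2 (0.14). The nearest to Fap were Il1r2 (0.37) and Cd63 (0.41), and the nearest to Cdh1 were Prf1 (0.26) and Igf1r (0.28).

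Among the other matrix genes, 8 of 27 listed were on the panel. Of these 8, 2 had an unadjusted p below 0.05, both with higher counts (panel 17.7%), and 0 were lower (panel 1.33%). Ctss, the gene of cathepsin S, a protease of antigen-presenting cells that also cleaves matrix, had 1152 ± 546 (SD, n = 3) scaled counts in the controls and 2209 ± 565 (SD, n = 4) in the treated tumors. All 4 treated tumors lay above every control (log2 fold change 0.94, SE 0.36, adjusted p = 0.223, edgeR). Plau, the gene of the urokinase plasminogen activator, had a log2 fold change of 1.03 (edgeR, SE 0.42, adjusted p = 0.235), with 3 of 4 treated tumors above every control. Over all alternatives the estimates lay between 0.59 and 1.29 for Ctss and between 0.71 and 1.56 for Plau. Spp1, the gene of osteopontin, had a log2 fold change of 0.23 (SE 0.30), which was -0.081 under TMM normalization and ran up to 0.66 over the alternatives. Ctsl, the gene of the lysosomal protease cathepsin L, was named after its values were seen and had a log2 fold change of -0.14 (SE 0.21), or -0.42 under TMM normalization. With an error larger than the estimate, its direction is not known.

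Matrix receptors were represented by 13 of 21 listed genes, of which 3 had higher counts and 1 had lower ones with an unadjusted p below 0.05 (panel 17.7% and 1.33%). With TMM normalization these were 2 and 2 (panel 11.6% and 5.33%). Itga1, the alpha chain of a collagen-binding integrin, was 78.0, 85.3 and 83.5 in the control samples and 129, 119, 103 and 126 in the treated tumors, without overlap (log2 fold change 0.54, SE 0.19, adjusted p = 0.204, edgeR). Its estimate was 0.29 under TMM normalization, where it was no longer called before adjustment. Itga4, the alpha chain of an integrin that binds fibronectin and VCAM1 on leukocytes, had a log2 fold change of 1.04 (SE 0.44, and 0.67 to 1.48 over the alternatives), and Cd36, a receptor for thrombospondin and fatty acids, one of 0.98 (SE 0.29, adjusted p = 0.181, edgeR). Besides Snai1, Cd36 was the only gene of the 6 lists named here to pass in DESeq2's Wald test (adjusted p = 0.0405). In both Itga4 and Cd36, all 4 treated tumors lay above every control. Itgb4, the beta chain of the laminin-binding integrin of epithelial hemidesmosomes, went the other way. The control samples had 108, 90.0 and 106 scaled counts of Itgb4 and the treated tumors 62.9, 70.8, 77.9 and 44.8. The groups did not overlap, with a log2 fold change of -0.66 (edgeR, SE 0.24, adjusted p = 0.217). The abundant Itgb1 had a log2 estimate of 0.028 (SE 0.14), or -0.21 under TMM normalization. Cd47 had one of 0.24 (SE 0.17), or 0.023 under TMM normalization, and its groups did not overlap, although the lowest treated tumor (1662.5) lay just above the highest control (1652).

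TGF-beta induces SNAIL, fibronectin and the fibrillar collagens in many cells. Of 19 genes listed for its pathway, 9 were on the panel, and an unadjusted p below 0.05 was found for 3 that were higher and 0 that were lower (panel 17.7% and 1.33%). These were the ligand Tgfb3 (log2 fold change 0.42, SE 0.16), the type I receptor Tgfbr1 (0.44, SE 0.19) and the endothelial coreceptor Eng (0.45, SE 0.19). In each, all 4 treated tumors lay above every control, with adjusted p = 0.223 to 0.250 (edgeR), and none kept an unadjusted p under 0.05 with TMM normalization. Under that scaling 0 genes of the list were called higher and 1 lower (panel 11.6% and 5.33%). This was the ligand Tgfb2, named after its values were seen, at -0.51 with the housekeeping genes (SE 0.26) and -0.77 with TMM normalization. Tgfb1, the most abundant ligand, had 819 ± 37.4 (SD, n = 3) scaled counts in the controls and 879.5 ± 49.8 (SD, n = 4) in the treated tumors (log2 fold change 0.10, SE 0.13, and -0.15 under TMM normalization). Smad4, the shared signal transducer, had a log2 fold change of -0.0079 (SE 0.14), and of -0.26 to 0.037 over the other scalings. Over the 35 genes of the 6 lists other than the 10 described, 8 were called higher before adjustment and 1 lower (panel 17.7% and 1.33%), with a median log2 fold change of 0.17 beside the 0.21 of the panel. Under TMM normalization 4 were called higher and 3 lower (panel 11.6% and 5.33%), with a median of -0.081 beside -0.021, so the balance of these genes depended on the scaling.

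**Figure D4:**
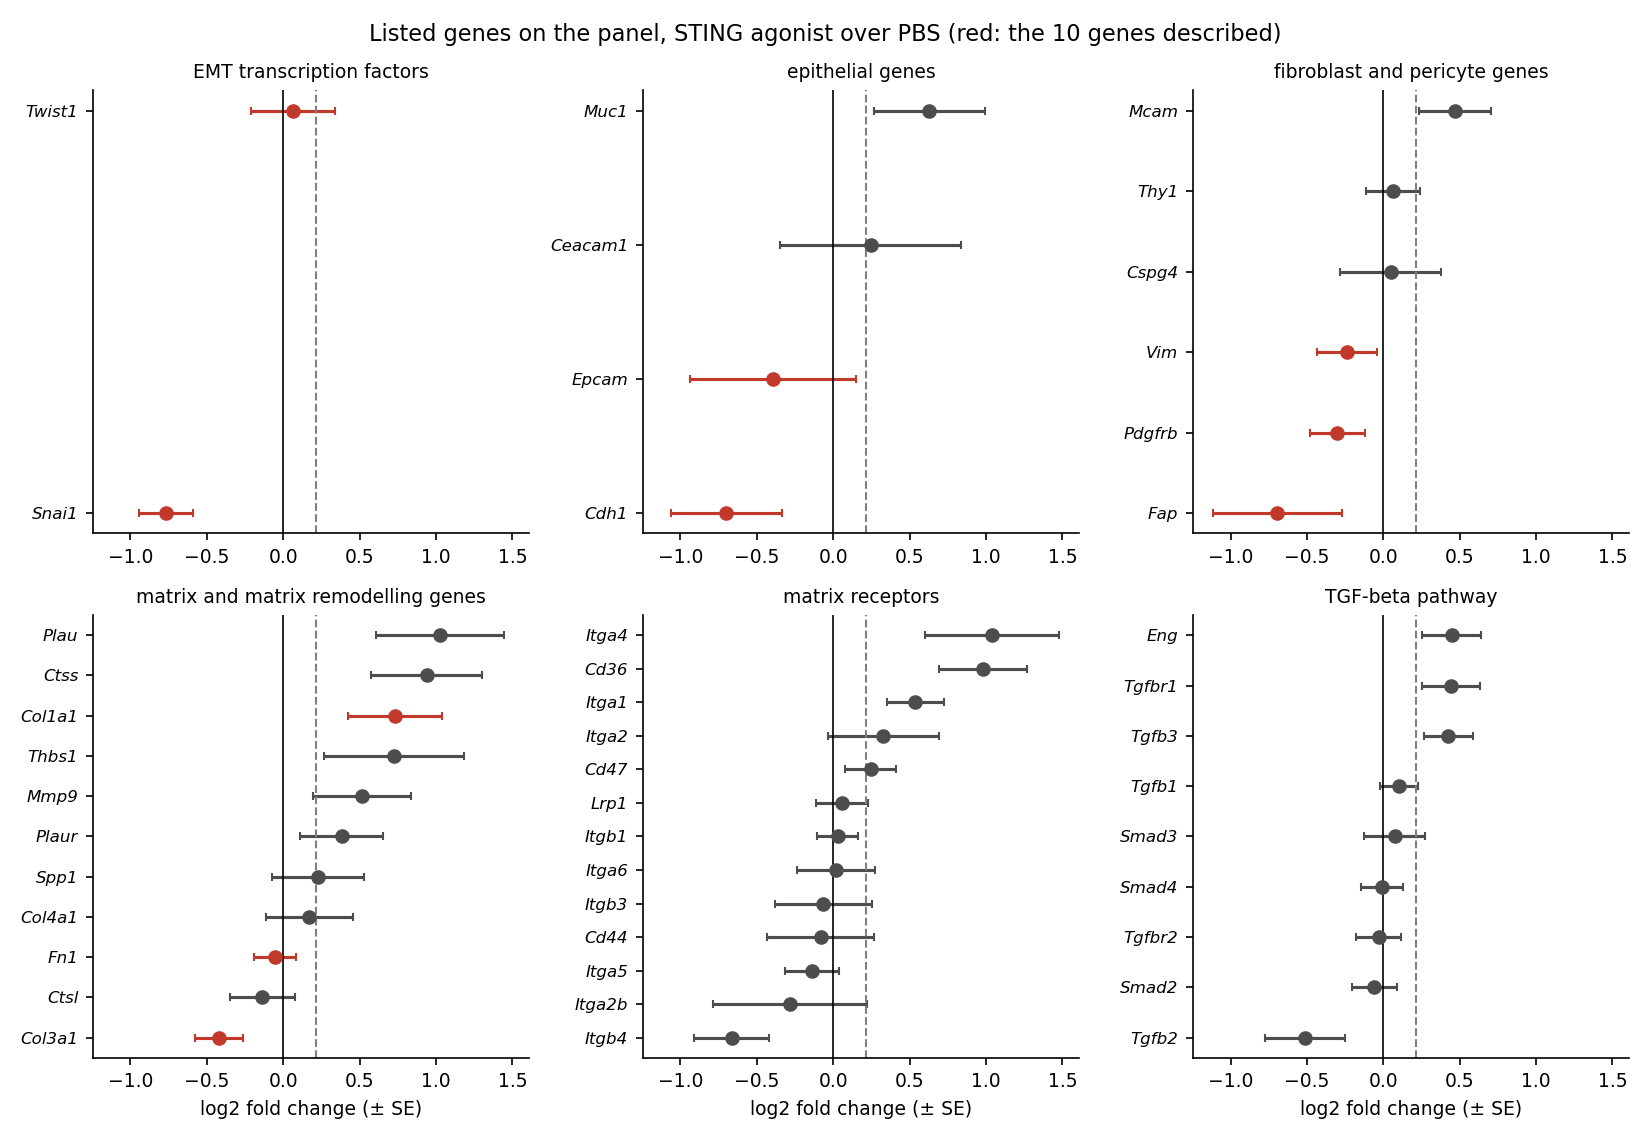
Log2 fold changes (STING agonist over PBS, ± SE, edgeR) of the panel genes on 6 lists, sorted within each list. Red points are the 10 genes described, gray points the other listed genes, and the dashed line is the median of all 750 genes, 0.21. Col1a1 and Col3a1 lie on opposite sides of 0, and Itgb4 lies lowest among the matrix receptors.

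Markers of other cells also differed between the samples. Ptprc, the gene of the leukocyte antigen CD45 and the only marker of its list, was 110, 42.6 and 113 scaled counts in the control samples and 261, 169, 142 and 272 in the treated tumors, without overlap. The summed macrophage markers (8 of 9 on the panel, most abundant Cd68) were 1726 ± 698 (SD, n = 3) under PBS and 2071 ± 364 (SD, n = 4) under the STING agonist. These genes went both ways. Among those with an unadjusted p under 0.05, which were named after their values were seen, Emr1 was higher (fold 2.46), and Cd163 (fold 0.400) and Marco (fold 0.398) were lower. The summed endothelial markers (8 of 10) were 3269 ± 270 and 3380.0 ± 232, a sum made up mostly of Cd34 (2783 ± 224 and 2716 ± 214). Of the other endothelial markers, Kdr (fold 2.08) and Eng (fold 1.37) were higher in all 4 treated tumors than in every control and were called before adjustment. These are 2 of the 8 markers, where 17.7% of the panel was called higher and 16.8% was higher without overlap. Under TMM normalization Eng was no longer called. The part of these cells in the results was not tested.

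Msln, the only mesothelial marker of 5 on the panel, was 95.9, 240.4 and 152 in the control samples and 113, 93.2, 130 and 140 in the treated tumors. It was highest in the averaged controls, as were 5 of the 10 genes described (Epcam, Vim, Fn1, Fap and Pdgfrb). The share of the panel that was highest there was not counted, so this is no result about the 10 genes. The summed hepatocyte markers (11 of 19, most abundant Ambp, with Masp2 at or below background) were 64.6 to 115 in 6 samples and 1542 in STING agonist-treated tumor 4, where all 11 were highest. The part of these cells in the results was not tested. Without treated tumor 4, the log2 fold changes of Snai1, Col3a1 and Col1a1 were -0.79, -0.47 and 0.70. The summed mast cell markers (5 of 6, most abundant Kit, with Tpsab1 and Ms4a2 at or below background) were 49.2 ± 8.81 and 39.8 ± 2.37, and the summed B cell markers (6 of 6, most abundant Cd79b, with the other 5 at or below background) were 43.1 ± 17.2 and 51.0 ± 15.1. The summed fibroblast markers (5 of 7), mostly Col3a1, were 9658 ± 935 in the controls and 8150 ± 999.5 after treatment, with 4 of the 5 among the 10 genes described.

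**Figure D5:**
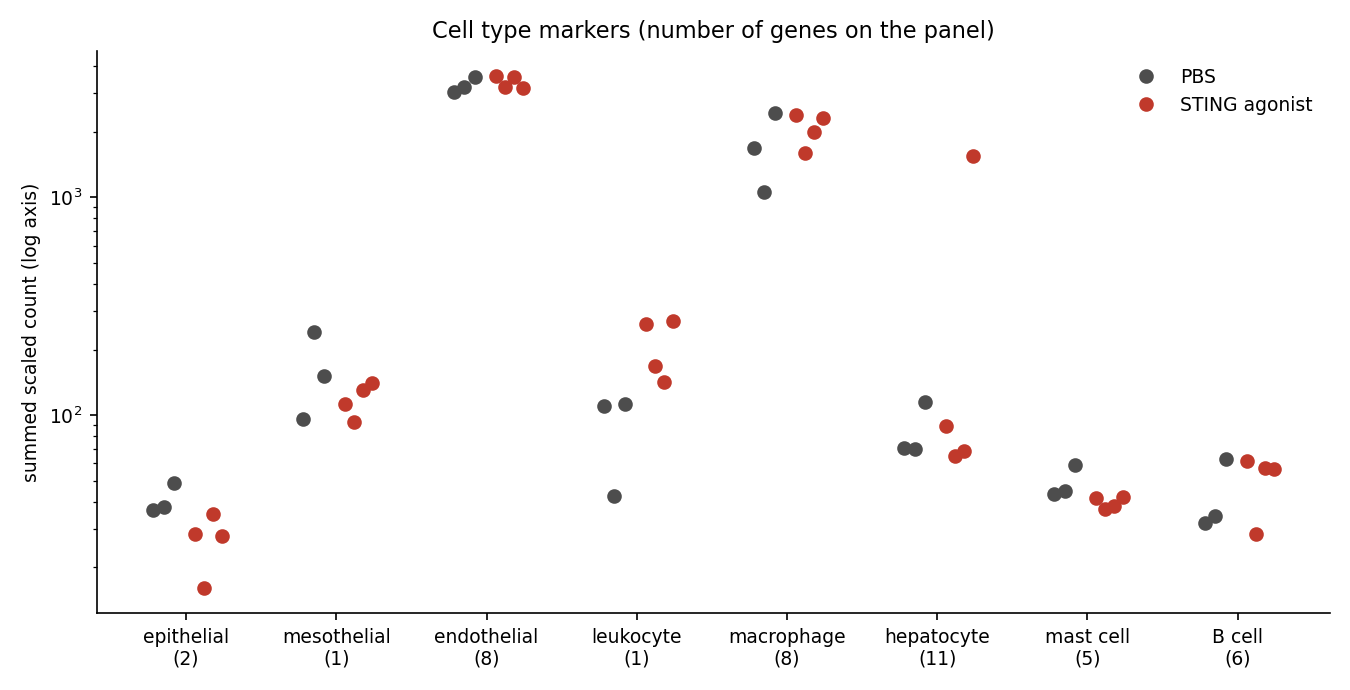
Summed scaled counts of cell type markers in each sample on a log axis (gray, PBS; red, STING agonist), with the number of marker genes on the panel in brackets. Ptprc, the leukocyte marker, is higher in all 4 treated tumors, and the hepatocyte markers are high in 1 treated tumor, at 1542 against 115 or less in the other samples.

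The median of the panel as a whole differed between scalings. The median log2 fold change of the 750 genes was 0.21 with the housekeeping genes and 0.23 with the positive control probes. With TMM normalization it was -0.021, but TMM takes its scale from the 750 genes themselves, which brings their median near 0 by construction. Relative to the panel, the 10 genes are lower than their estimates with the housekeeping genes read. Snai1 lay 0.98 below the panel median on the log2 scale, Col3a1 0.63 below and Pdgfrb 0.51 below, while Col1a1 lay 0.52 above it. Under TMM normalization 4 of the 10 had an unadjusted p under 0.05, against 16.9% of the panel. All 4 were lower (Snai1, Cdh1, Col3a1 and Pdgfrb), against 5.33% of the panel. The groups then did not overlap in 3 of the 10, against 15.7% of the panel, namely Snai1, Cdh1 and Pdgfrb, while Col3a1 overlapped. All 3 were lower, against 6.4% of the panel, and 0 were higher, against 9.33%. None of the 10 was higher by the test, against 11.6% of the panel, as Col1a1, with a log2 fold change of 0.54 (SE 0.26), missed the threshold.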

How the data were processed

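Whole peritoneal tumors, 4 from PBS-treated and 4 from STING agonist-treated mice, were measured on the NanoString nCounter PanCancer Immune mouse panel. The authors deposited the counts of 784 probes per sample (750 for immune-related genes, 20 for housekeeping genes, 8 as negative and 6 as positive controls), neither scaled nor background-subtracted. A count was above background when it exceeded the mean of a sample's negative controls by more than 2 SD. The geometric mean of the 20 housekeeping genes served as library size. Controls 2 and 4 were replaced by their rounded mean count. All 750 genes were fitted without a filter or covariate in edgeR 4.0.16 under R 4.3.3 (quasi-likelihood F test), with Benjamini-Hochberg adjustment, and the code was tested on simulated data. Single genes were also tested by exact permutation of log2(scaled count + 1). Coordinates and promoters are from RefSeq (GRCm38.p6), and all 10 genes matched its gene table. Intervals and SDs on low counts include counting error.

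The 10 genes and the lists were chosen with earlier results of these data known. Named besides the 10 were, of 6 lists, the genes with an unadjusted p under 0.05 and the 2 of each list with the highest counts. For each of the 10 with a mean of at least 20 counts, the 2 genes nearest in profile were named. Alternatives were 5 other scalings, a filter at a mean of 20 counts, background subtraction, DESeq2 1.42.0, limma 3.58.1, the two-sample test of the study's statistics section, exact permutation, controls 2 and 4 kept separate or left out, a replicate block, and each sample left out in turn. Python 3.11.15 and scipy 1.17.1 were used.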

Additional observations from a re-analysis of the deposited data

Results flagged for a closer look

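In the 4 STING agonist-treated tumors, on the log2 scale, the distance of the highest or lowest tumor from its nearest neighbor was divided by the range of the group and compared with Dixon's limit at the 5% level. Of 37 values tested (28 genes and 9 ratios), 3 lay above it, and chance gives about 1 in 20. All 3 concern treated tumor 2. Vim was low there, at 7798 scaled counts against 10862 to 11195 in the other 3 tumors (share 0.917). Cd47, the ligand of SIRP-alpha that keeps macrophages from engulfing a cell, was high, at 1872 against 1662.5 to 1682 (share 0.903). The log2 ratio of Twist1 to Pdgfrb was low, at 0.49 against 1.18 to 1.27 (share 0.889). The comparison was not run on the 3 control samples.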

How the results depend on the processing

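Of 219 values of the 10 genes over 22 alternatives, 212 kept the direction of the estimate. The exceptions were those of Twist1, at -0.21 with TMM normalization, -0.22 with DESeq2 size factors, -0.13 with the total count, -0.015 with all 8 tumors separate, and -0.16 to 0.22 when single samples were left out. With TMM, DESeq2 size factors and the total count, the median of the 10 genes was -0.60, -0.61 and -0.54, and without controls 2 and 4 it was -0.14. With DESeq2 size factors, the total count and the positive controls, 5, 6 and 1 of the 10 had an unadjusted p under 0.05 (panel 16.8%, 13.2% and 12.8%). With the last 2 of these scalings, the groups did not overlap in 5 and 1 (panel 13.9% and 10.7%). DESeq2's Wald test called 44 genes after adjustment, and its estimate for Snai1 was -0.77. Each other tool and scaling called 0.

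When single samples were left out, 0 to 7 genes passed after adjustment (7 without treated tumor 3, 1 without control 3) and 84 to 160 before it (84 without treated tumor 1, 89 without treated tumor 4). Of the 10, 1 to 3 then had an unadjusted p under 0.05 (panel 11.2% to 21.3%), and 3 to 5 did not overlap (panel 17.5% to 33.7%). Before adjustment, 133 genes passed as higher and 10 as lower. With TMM these were 87 and 40, with DESeq2 size factors 81 and 45, and with the total count 68 and 31. With the positive control probes they were 89 and 7, and with the housekeeping genes of at least 100 counts 135 and 11.

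The difference in the log2 ratio of Cdh1 to Epcam was 0.068 with background subtracted, -1.16 without controls 2 and 4, and -0.71 to 0.32 over left-out samples. That of Cdh1 to Snai1 was -0.044 with background subtracted, -0.13 without controls 2 and 4, and -0.066 to 0.23 over left-out samples.

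Of 376 values of the other named genes, 347 kept their direction. With TMM, Thy1, Spp1, Itgb1 and Tgfb1 were at -0.18, -0.081, -0.21 and -0.15. With DESeq2 size factors, Thy1, Spp1, Itgb1, Tgfb1 and Ceacam1 were at -0.20, -0.091, -0.22, -0.16 and -0.0031. With the total count, Thy1, Itgb1, Tgfb1 and Ceacam1 were at -0.14, -0.17, -0.095 and -0.015. Without controls 2 and 4, Ceacam1 and Itgb1 were at -0.073 and -0.034. Smad4 was at 0.037 with the positive controls and 0.012 with all 8 tumors separate. Over left-out samples the ranges were -0.33 to 0.63 for Ceacam1, -0.020 to 0.16 for Thy1, -0.0090 to 0.33 for Spp1, -0.020 to 0.14 for Itgb1 and -0.074 to 0.024 for Smad4. The cause of these changes was not tested.

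The samples of the groups share replicate numbers, but same-numbered samples did not deviate together (r = -0.28 to -0.060 over 517 genes within the samples), so the numbers do not pair them. With the number as a block and all 8 tumors separate, 0 genes passed after adjustment and 172 before it. Snai1 was then at -0.73, Twist1 at -0.013 and Smad4 at 0.0093. Of the 10, 3 had an unadjusted p under 0.05 there (Snai1, Col1a1 and Col3a1), against 22.9% of the panel. Depth limits Epcam most, and the filter at 20 counts left it without a value.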

Other observations

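No treated tumor was low in all 10 genes. Of the 10, 5 had their lowest treated value in tumor 2 (Snai1, Twist1, Cdh1, Epcam and Vim), 4 in tumor 3 (Fn1, Col1a1, Col3a1 and Pdgfrb) and 1 in tumor 4 (Fap). Treated tumor 2 also held the highest Col1a1 and Col3a1 of its group. Between controls 2 and 4, the median difference of the 10 genes was 0.085 on the log2 scale, while treated tumors 1 and 4, which were not alike over the panel (chi-square 6.68 per degree of freedom), differed by 0.071.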
